A study of Mus musculus with 6 samples.

Results

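Hypoxia-inducible factors and their partners and targets were followed in whole mouse pituitary glands as a group of 7 genes: the factor subunits Hif1a, Epas1 and Arnt, the oxygen sensor Egln1, and the target genes Vegfa, Bnip3 and Fam162a. Members were chosen by role for 6 of the genes and selected on the measured genotype difference for the other, Fam162a. They are 7 of the 12393 genes that the array measures with a probe set naming 1 gene only, and they have 13 such probe sets between them. Fam162a was picked because its intensity read higher on the arrays labelled Bmal1-/-, so its genotype difference is given as a description and with no test. The 6 others and the gene lists used further on were also chosen with earlier results of these data known.

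By their labels, one set of arrays carried RNA of mice that lack the clock gene Bmal1 (Arntl) and the other RNA of wild-type mice, in both cases C57BL/6J males aged 8 to 12 weeks under 12 hours of light a day. All mice were killed at zeitgeber time 12, when the lights go off. There were 3 arrays labelled Bmal1-/- (replicates 4 to 6) and 3 wild-type arrays (replicates 1 to 3), each of RNA pooled from 3 glands. The comparison asks how the loss of BMAL1 alters pituitary transcripts at that hour.

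In most cells the HIF system reads oxygen through the stability of a protein. EGLN1 uses oxygen to hydroxylate HIF1A and EPAS1, the VHL ubiquitin ligase then marks them for destruction, and only when oxygen is short do they last, pair with ARNT and switch on genes for blood vessel growth, glucose use and mitochondrial clearance. HIF1A, EPAS1 and ARNT share the bHLH-PAS fold with BMAL1 and CLOCK. HIF pairs bind a DNA core of ACGTG or GCGTG, and BMAL1 pairs bind the E-box CACGTG, which holds ACGTG on both strands. An expression array measures transcripts and not the stability of HIF proteins.

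The promoters of the mitochondrial target genes Fam162a and Bnip3 and of the sensor gene Egln1 are shown because these genes carry such cores just before their start. Fam162a and Bnip3 also had log2 differences of opposite sign, but that of Fam162a was set by its selection and that of Bnip3 was not called. Each run is the 250 bases before the RefSeq start (build GRCm38.p6), 5′ to 3′ on the gene's strand. Capitals mark ACGTG or GCGTG on either strand, so that a match on the other strand reads CACGT or CACGC, and neighbouring matches run together.
Fam162a, chr16:36071562-36071811, minus strand: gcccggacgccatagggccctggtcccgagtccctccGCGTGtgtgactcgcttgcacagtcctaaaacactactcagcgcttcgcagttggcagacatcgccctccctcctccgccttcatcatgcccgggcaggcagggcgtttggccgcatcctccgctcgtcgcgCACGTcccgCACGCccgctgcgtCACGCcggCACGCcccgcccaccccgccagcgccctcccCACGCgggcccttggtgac
Bnip3, chr7:138909507-138909756, minus strand: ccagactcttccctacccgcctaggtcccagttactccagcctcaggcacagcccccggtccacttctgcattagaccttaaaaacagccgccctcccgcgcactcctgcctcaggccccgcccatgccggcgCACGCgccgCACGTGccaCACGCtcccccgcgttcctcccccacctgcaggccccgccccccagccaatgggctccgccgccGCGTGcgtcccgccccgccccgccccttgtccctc
Egln1, chr8:124949255-124949504, minus strand: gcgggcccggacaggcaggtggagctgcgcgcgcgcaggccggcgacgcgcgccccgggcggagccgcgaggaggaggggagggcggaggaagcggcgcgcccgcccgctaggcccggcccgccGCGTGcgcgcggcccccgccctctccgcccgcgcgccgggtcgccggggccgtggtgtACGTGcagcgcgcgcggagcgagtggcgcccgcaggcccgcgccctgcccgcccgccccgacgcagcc

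Fam162a held 1 ACGTG, on the other strand with its outer end 81 bases before the start, and 5 GCGTG. Bnip3 held 1 CACGTG beginning 108 bases before the start, whose 2 overlapping ACGTG reads are the only ones in its window, and 3 GCGTG. Egln1 held 1 ACGTG at 68 bases and 1 GCGTG at 126 bases before the start. Over both strands, ACGTG was in 16.6% of 32851 such windows in the RefSeq table, GCGTG in 28.2%, at least one of them in 38.6%, and CACGTG in 6.02%. Hif1a too held a CACGTG, at 135 bases before its start, and an ACGTG apart from it at 70 bases. Arnt held 1 GCGTG and no ACGTG. Vegfa has 2 windows in the table, of which the one at the outermost start held neither core and the inner one held 1 of each. The windows were rich in G and C, at 71.2% in Fam162a, 72.4% in Bnip3 and 86.0% in Egln1, against a median of 52.4% over all windows. A match is a description of letters and not of binding.

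Values are MAS5 intensities, in arbitrary units on a linear scale, and n = 3 arrays per genotype throughout. Differences are on the scale of log2(intensity + 16), labelled Bmal1-/- minus wild type, and were tested with limma over all 13576 probe sets bright enough (the 60% with the highest mean), at an adjusted p under 0.05. Arrays correlated at 0.980 to 0.986 within a genotype and at 0.970 to 0.976 between genotypes (Pearson's r across tested probe sets). The targeted gene, Arntl, read 112.1, 102 and 127.5 on the arrays labelled Bmal1-/-, against 39.6, 51.7 and 38.6 in wild type, so its transcript was higher and not lower there. The sources used here do not say whether that probe set lies inside the deletion, and one outside it checks nothing about the labels. Every direction is therefore that of arrays labelled Bmal1-/-. The 9 tested markers of pituitary hormone cells, of 11 listed, summed to 55974 to 58827 on the arrays labelled Bmal1-/-, against 61657 to 70153 in wild type, with none at 0 on any array. Most of that sum came from Gh, Prl, Pomc and Cga. Gh and Cga passed downward and Lhx3 upward, where 5.66% of all tested genes passed. The Lhx3 call ended without any 1 array (highest adjusted p = 0.147). All 3 calls ended with quantile normalization. The Gh call also ended without wild-type replicate 1 or 3 or replicate 5 or 6 of those labelled Bmal1-/- (highest adjusted p = 0.0996). For Cga the omission of wild-type replicate 3, or of replicate 4 or 6 of those labelled Bmal1-/-, ended it too (highest adjusted p = 0.0834).

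Of the 13 probe sets of the 7 genes, 9 were bright enough to be tested, which leaves Epas1 as the one gene with no tested probe set. None of the 5 tested genes listed for their role passed the test, where 5.66% of all 8033 tested genes did (3.00% higher, 2.66% lower). At an unadjusted p under 0.05 by limma there was 1 of the 5, Bnip3, against 21.5% of all tested genes. By probe set, 0 of their 8 tested probe sets passed, against 5.54% of all (2.75% higher, 2.78% lower). Both genotypes stood apart at 3 of those 8, all of them lower, against 25.9% of all tested probe sets (13.3% lower) and 26.4% of genes by their brightest probe set. Counts this small are not set apart from the background. The plot of every probe set on every array shows the wide gap at Fam162a beside the narrow ones elsewhere.

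**Figure D1:**
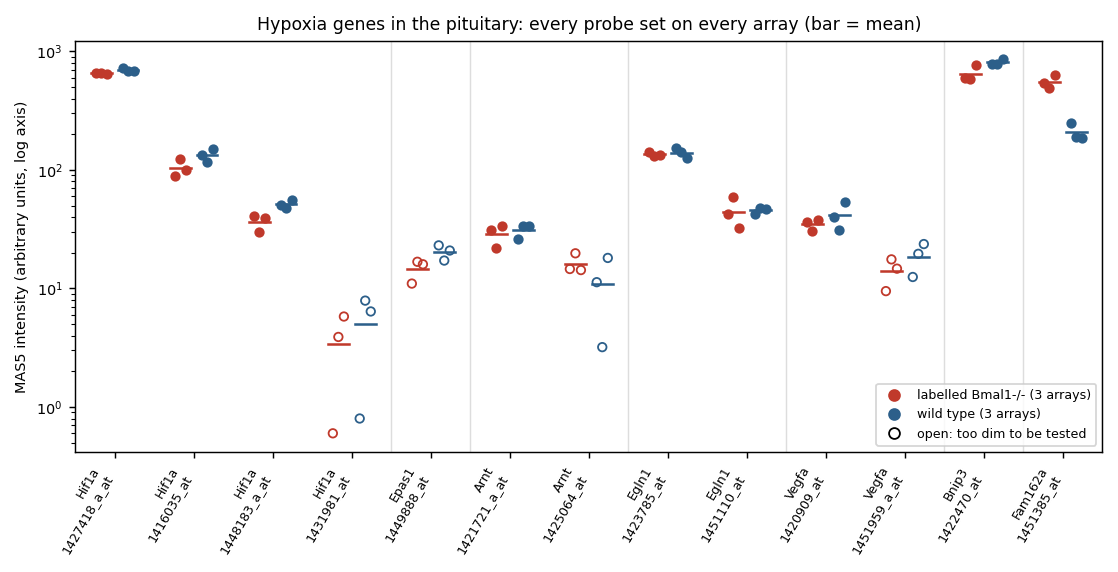
MAS5 intensity (log axis, arbitrary units) of the 13 probe sets of the 7 genes on each of the 3 arrays labelled Bmal1-/- (red, left) and the 3 wild-type arrays (blue, right), with bars at the means and open points for probe sets too dim to be tested. Fam162a reads 487.1 to 631.1 on the arrays labelled Bmal1-/- and 187.2 to 247.6 in wild type, while for most other probe sets the colours lie level or overlap.

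Fam162a encodes a mitochondrial protein that is induced by low oxygen and promotes cell death in human cells. Its single probe set, 1451385_at, read 544.9, 487.1 and 631.1 on the arrays labelled Bmal1-/-, against 247.6, 189.4 and 187.2 in wild type. The lowest of the arrays labelled Bmal1-/- was thus well above the highest wild-type array. The means were 554 ± 72.5 and 208 ± 34.3 (SD, n = 3 each), a ratio of 2.66 and a log2 difference of 1.35 (SE 0.12). This was the 9th largest rise among the 8033 tested genes, which is what it was picked for. With any 1 array left out the difference was 1.26 to 1.47. Fam162a lies on chromosome 16, away from the targeted locus on chromosome 7.

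Bnip3 encodes a BH3-type protein of the outer mitochondrial membrane that marks mitochondria for removal when oxygen falls. It read 594.8, 585.2 and 771 on the arrays labelled Bmal1-/-, against 790.1, 781.4 and 855.6 in wild type. The genotypes did not overlap, but replicate 6 of those labelled Bmal1-/- lay just under the lowest wild-type array. The means were 650.3 ± 105 and 809 ± 40.6, and the log2 difference of -0.32 (SE 0.10, 95% interval -0.54 to -0.10, adjusted p = 0.0895) did not pass the test. Without replicate 6 it was -0.44 and passed (adjusted p = 0.0182), and without any other single array it was -0.25 to -0.34 and did not. Bnip3 and Fam162a, both induced by HIF in other cells, had log2 differences of opposite sign at this hour. Fam162a was picked for its rise and Bnip3 did not pass, so a divergence between them was not tested. Bnip3 is on chromosome 7 like Arntl, 25.6 Mb from it in GRCm38.p6. Whether DNA carried along with the mutant allele reaches that far was not tested.

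Vegfa encodes the vascular endothelial growth factor that HIF induces to draw blood vessels in. Its tested probe set, 1420909_at, read 36.2, 30.7 and 37.6 on the arrays labelled Bmal1-/-, against 39.9, 31.1 and 54 in wild type. The genotypes overlapped, and the wild-type spread came mostly from replicate 3. The log2 difference was -0.17 (SE 0.17, 95% interval -0.53 to 0.20, adjusted p = 0.623), and it was -0.02 without wild-type replicate 3 and -0.30 without wild-type replicate 2. A second probe set, too dim to be tested, read 9.5, 17.6 and 14.7 on the arrays labelled Bmal1-/-, against 12.5, 19.6 and 23.7 in wild type. Its genotypes overlapped too.

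Hif1a encodes the oxygen-regulated subunit of HIF-1 and has 4 probe sets, all with log2 differences below 0. The brightest, 1427418_a_at, read 661.5, 662.6 and 642 on the arrays labelled Bmal1-/-, against 730.6, 686.4 and 684.5 in wild type. The genotypes did not overlap, yet the means of 655 ± 11.6 and 700.5 ± 26.1 were close, with a log2 difference of -0.09 (SE 0.07, 95% interval -0.25 to 0.06, adjusted p = 0.493). For 1448183_a_at the values were 40.5, 29.9 and 39 on the arrays labelled Bmal1-/-, against 50.4, 47.5 and 56.3 in wild type, again with no overlap. Its log2 difference was -0.37 (SE 0.14, unadjusted p = 0.0252, adjusted p = 0.163). The third, 1416035_at, read 89.1, 123.1 and 99.7 on the arrays labelled Bmal1-/-, against 134.3, 117.8 and 149.8 in wild type, and overlapped through replicate 5 of those labelled Bmal1-/- and wild-type replicate 2. Its log2 difference was -0.33 (SE 0.13, unadjusted p = 0.0294, adjusted p = 0.177). The fourth was near 0 on every array, at 0.6 to 5.8 on the arrays labelled Bmal1-/- and 0.8 to 7.9 in wild type. The probe sets thus shared a sign but not a size, and none passed. Averaged over all 4, the difference was -0.22 and did not pass either.

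Epas1 encodes HIF-2 alpha, the paralogue of HIF1A known for its high level in endothelial cells. Its single probe set averaged 17.3, just below the dimmest tested probe set at 17.33. It read 11, 16.8 and 16 on the arrays labelled Bmal1-/-, against 23.1, 17.2 and 20.9 in wild type. The genotypes did not overlap, but replicate 5 of those labelled Bmal1-/- and wild-type replicate 2 differed by less than 1 unit. The log2 difference was -0.25 (SE 0.16), and in a fit of all 22626 probe sets, where 1.46% passed, its adjusted p was 0.508. At this brightness the size depends on the constant added before the log. It was -0.47 with 1 added and -0.10 with 64.

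Endothelial markers were read beside Epas1 and Vegfa. In bulk glands, fewer cells of a type and less RNA per cell cannot be told apart. Over the 11 tested endothelial markers of 12 listed, the summed intensity was 890.0 to 1031 on the arrays labelled Bmal1-/-, against 802 to 916 in wild type. These ranges overlapped, no marker was at 0, and 1 marker, Plvap, which forms the diaphragms of fenestrated capillaries, rose (log2 difference 0.40, adjusted p = 0.0287), though not without wild-type replicate 1 or 3 or replicate 4 or 5 of those labelled Bmal1-/- (highest adjusted p = 0.103). Markers of other cell types were summed in the same way. Such sums weigh the brightest markers most, which were Cyp2f2 and Aldoc among the folliculostellate ones. The 7 tested folliculostellate markers of 8 summed to 1761 to 1967 on the arrays labelled Bmal1-/-, against 2460.4 to 2885 in wild type, with Lcn2 and Cyp2f2 passing downward. The other markers of that list did not pass. Sox2 (0.05), Fxyd1 (0.12) and Aldoc (0.02, also on the glycolysis list) lay above 0. Anxa1 (-0.58, with no overlap) and Aldh1a1 (-0.12) lay below 0, and the list median was -0.12. For 7 tested macrophage markers of 8 the sums were 364 to 424 on the arrays labelled Bmal1-/-, against 508 to 545 in wild type. All 7 lay below 0, with a median of -0.32. At an unadjusted p under 0.05 by limma there were 4 of the 7, against 21.5% of all tested genes. Only C1qa passed, downward. That C1qa call ended without any 1 array (adjusted p = 0.0504 to 0.0898). For 3 tested pericyte markers of 6 they were 501 to 526 on the arrays labelled Bmal1-/-, against 744 to 884 in wild type. Rgs5 passed downward (-0.77), and Pdgfrb (-0.10) and Kcnj8 (-0.19) overlapped and did not pass. Posterior lobe (1 of 6 tested, Oxt) summed to 81.8 to 104 on the arrays labelled Bmal1-/-, against 114 to 192 in wild type, and red blood cells (1 of 7 tested, Alas2) to 55.7 to 101, against 66.6 to 106, with overlap. Neither passed with all 6 arrays. Over all tested genes, 5.66% passed (3.00% higher, 2.66% lower). None of these markers was at 0 on any array. Their part in the differences of the hypoxia genes was not tested.

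Arnt encodes the shared partner of the HIF alpha subunits and of the aryl hydrocarbon receptor. Its tested probe set, 1421721_a_at, read 31.1, 22 and 33.9 on the arrays labelled Bmal1-/-, against 26.2, 33.9 and 33.6 in wild type, with overlap. The log2 difference was -0.08 (SE 0.16, 95% interval -0.42 to 0.27, adjusted p = 0.839). A second, dimmer probe set ran the other way, at 14.6, 19.8 and 14.3 on the arrays labelled Bmal1-/-, against 11.3, 3.2 and 18.1 in wild type, and overlapped as well. The direction for Arnt also turned to 0.04 without replicate 5 of those labelled Bmal1-/-, and to 0.11 with both probe sets averaged, so the data give it none.

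Egln1 encodes PHD2, the main prolyl hydroxylase that tags HIF alpha subunits when oxygen is present, and is itself induced by HIF. Its brighter probe set, 1423785_at, read 140.9, 132 and 134.3 on the arrays labelled Bmal1-/-, against 153, 141.8 and 125.1 in wild type. The arrays labelled Bmal1-/- lay inside the wild-type range. The log2 difference was -0.04 (SE 0.11, 95% interval -0.27 to 0.20, adjusted p = 0.891), and 0.02 without wild-type replicate 1. The second, 1451110_at, read 42.5, 58.6 and 32.1 on the arrays labelled Bmal1-/-, against 42.8, 47.3 and 47 in wild type, with a difference of -0.05 (adjusted p = 0.896). Both intervals include 0, and that of the second, -0.42 to 0.31, is the wider.

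**Figure D2:**
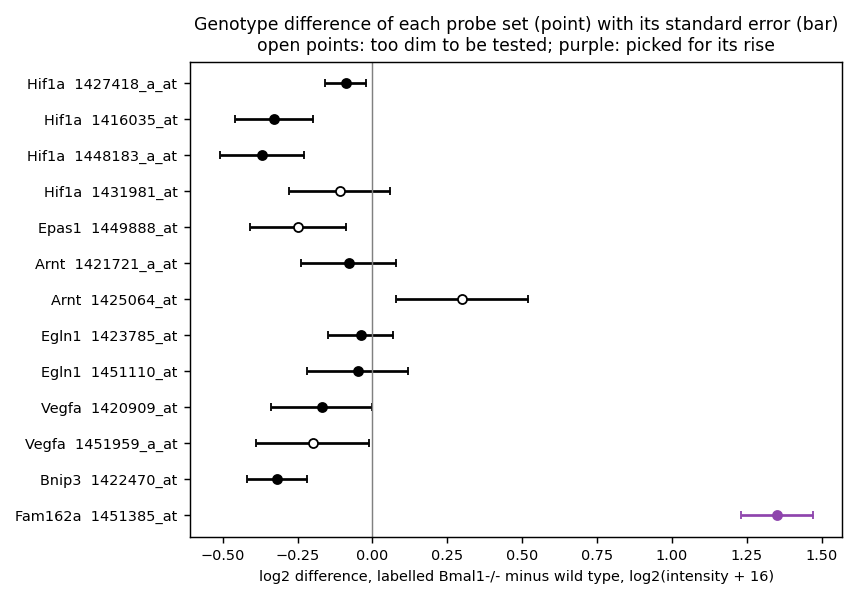
Log2 difference (labelled Bmal1-/- minus wild type, on log2(intensity + 16)) of each of the 13 probe sets, as a point with its standard error; open points were too dim to be tested, and Fam162a, picked for its rise, is in purple. Fam162a stands at 1.35, the dim second Arnt probe set at 0.30, and the other 11 lie between -0.37 and -0.04.

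**Figure D3:**
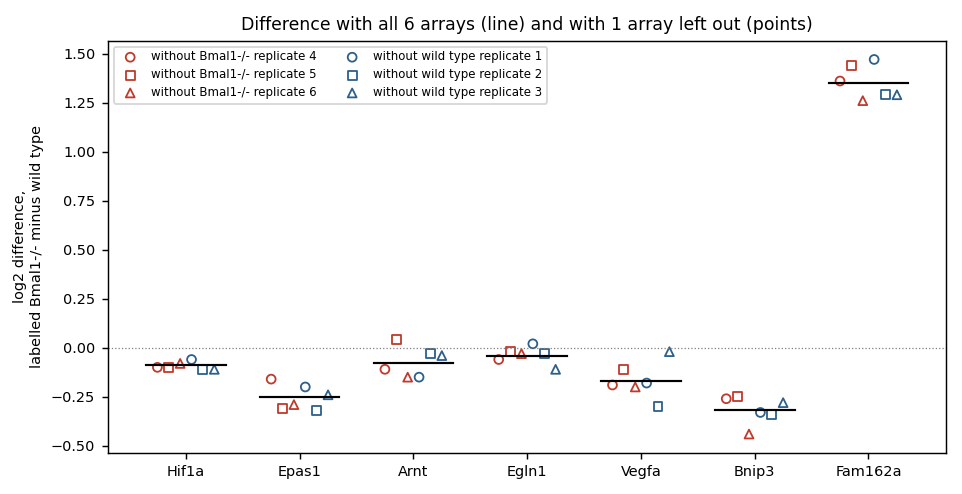
Log2 difference of each gene's leading probe set (labelled Bmal1-/- minus wild type) with all 6 arrays, as a line, and with each array left out in turn, as points. Fam162a stays between 1.26 and 1.47, Bnip3 between -0.44 and -0.25, and Arnt and Egln1 cross 0.

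As a measure of likeness over the 6 arrays, Pearson's r on log2(intensity + 16) was taken against every other tested gene. The 5 genes nearest Fam162a were Ahsa1, a co-chaperone of HSP90 (0.995), Serpini1, which encodes neuroserpin (0.994), the cell surface gene Cd24a (0.993), Tcp1, a chaperonin subunit (0.993), and the ribosomal gene Rps18 (0.992). All were higher on the arrays labelled Bmal1-/-, with log2 differences of 0.31, 0.71, 0.79, 0.23 and 0.11. The arrays fall into 2 genotypes here, so any gene that splits them cleanly scores high, whatever its size. Nearest Vegfa were Tspan3 (0.977), Bex2 (0.961), Rnaseh1 (0.960), Slc26a6 (0.959) and Ubac2 (0.957), which shared its high value in wild-type replicate 3.

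The rest of the oxygen-sensing machinery was followed through 16 listed genes, of which 12 have a probe set of their own and 10 were tested. By the brightest probe set of each, 1 rose and none fell, where 5.66% of all tested genes passed, with a median log2 difference of 0.10 against 0.00. Siah1a, a ubiquitin ligase that removes EGLN-type prolyl hydroxylases, read 200.1, 197.9 and 214.6 on the arrays labelled Bmal1-/-, against 166.8, 139 and 136.1 in wild type (log2 difference 0.44, SE 0.11, adjusted p = 0.0335). That call ended without wild-type replicate 2 or 3 or any 1 of the arrays labelled Bmal1-/- (highest adjusted p = 0.116), and its 2 other tested probe sets were at -0.09 and 0.15. Mouse Siah1b is a close paralogue, and what share of this signal is its own was not tested. Cited2, which competes with HIF1A for its coactivators, read 319.6, 322.3 and 241.1 on the arrays labelled Bmal1-/-, against 196.6, 247.5 and 190.7 in wild type, and did not pass (0.44, adjusted p = 0.0653). It passed without wild-type replicate 2 or without replicate 6 of those labelled Bmal1-/- (lowest adjusted p = 0.0260). Hif3a, another alpha subunit, with isoforms that inhibit HIF, read 35.1, 34.6 and 44.5 on the arrays labelled Bmal1-/-, against 61, 47.6 and 64.2 in wild type. Its genotypes did not overlap, and it did not pass either (-0.44, adjusted p = 0.103). Eloc, a subunit of the VHL ligase, was at 0.10 by its brightest probe set and did not pass, while another of its probe sets passed downward (-0.49, adjusted p = 0.0442). Vhl was at -0.17 and Egln2 at 0.14, both with overlap.

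Among 30 listed HIF-induced genes outside glycolysis, 18 were tested, 1 rose and 2 fell, a share of 16.7% against 5.66% of all tested genes, with a median of -0.08 against 0.00. At an unadjusted p under 0.05 by limma there were 4 of the 18, near the 21.5% of all tested genes. The list leaves out the members Vegfa, Bnip3 and Egln1, which did not pass, and Fam162a, picked for its rise. Ddit4, an inhibitor of mTOR signalling that glucocorticoids also induce, read 88.5, 164.9 and 87.9 on the arrays labelled Bmal1-/-, against 218.2, 168.8 and 363.2 in wild type (log2 difference -1.02, SE 0.25, adjusted p = 0.0355). Replicate 5 of those labelled Bmal1-/- and wild-type replicate 2 nearly met, and the call ended without wild-type replicate 1 or 3 or without replicate 4 or 6 of those labelled Bmal1-/- (highest adjusted p = 0.130). P4ha2, a collagen prolyl hydroxylase subunit, read 117.3, 115.3 and 142.9 on the arrays labelled Bmal1-/-, against 171.2, 219.3 and 200.9 in wild type, and fell (-0.59, SE 0.12, adjusted p = 0.0154). Its paralogue P4ha1 was at 0.11 and did not pass. The P4ha2 call ended without wild-type replicate 3 or without replicate 4 or 5 of those labelled Bmal1-/- (highest adjusted p = 0.0665).

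Ndrg1, a stress-responsive gene that low oxygen induces, read 214.2, 204.9 and 163.7 on the arrays labelled Bmal1-/-, against 123.6, 135.2 and 144.8 in wild type (log2 difference 0.48, SE 0.12, adjusted p = 0.0365). The 4 other Ndrg1 probe sets, at 0.31, 0.58, 0.87 and 0.45, shared its sign, and those at 0.87 and 0.45 passed too. The Ndrg1 call ended without any 1 array except replicate 6 of those labelled Bmal1-/- (highest adjusted p = 0.133). Higd1a, a mitochondrial gene induced by hypoxia like Fam162a, had differences of -0.07, -0.04 and -0.10 at its 3 probe sets and did not pass. The same held for Bhlhe40 (-0.27), Kdm3a (0.12), Mxi1 (-0.04) and Ero1a (-0.05). Adm, Angptl4, Car9, Car12, Edn1, Nos2, Stc1 and Stc2 were too dim to be tested.

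The glycolytic targets of HIF included 15 tested genes of 21 listed, of which 3 rose and none fell, where 3.00% of all tested genes rose and 2.66% fell, with a median of 0.02. Pfkp (0.79), Ldha (0.51) and Hk1 (0.37) passed, while the glucose carriers Slc2a1 (0.06) and Slc2a3 (0.04), and Pgk1 (-0.13) and Pdk1 (-0.15), did not. Hk2, the other hexokinase tested, read 53.2, 39.3 and 49.9 on the arrays labelled Bmal1-/-, against 49.7, 92.7 and 77.9 in wild type, with overlap. Its log2 difference of -0.47 did not pass (adjusted p = 0.158), and without wild-type replicate 1 it passed downward (adjusted p = 0.0440). The Hk1 call ended without wild-type replicate 3 or without any 1 of the arrays labelled Bmal1-/- (highest adjusted p = 0.0955). Aldoa was at 0.00 by its brightest probe set and did not pass, while another of its probe sets passed upward (0.43). The remaining tested probe sets of Aldoa, at -0.26 and -0.01, did not pass.

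Partners of Vegfa and Bnip3 gave no call. Of 9 VEGF ligands and receptors listed, 8 were tested, and by limma none passed, with 2 at an unadjusted p under 0.05 and a median of -0.21. Over all tested genes 21.5% had such a p, so these 2 of 8 are not set apart from the background. Those 2 were Vegfc, a lymphatic growth factor, at 71.6, 60.2 and 79.1 on the arrays labelled Bmal1-/-, against 122.8, 82.1 and 128 in wild type (log2 difference -0.54, adjusted p = 0.0670), and its receptor gene Flt4 (-0.53, adjusted p = 0.0880). Neither overlapped between genotypes, and Vegfc passed without wild-type replicate 2 (adjusted p = 0.0128). Kdr, the main receptor for VEGFA, was at -0.38 with overlap. Among 11 tested BCL2 and mitophagy genes of 15, none passed and 3 had an unadjusted p under 0.05, again near the 21.5% of all tested genes, with a median of 0.01. The 2 smallest p-values were those of Bcl2l11, the BH3-only gene BIM (0.49, adjusted p = 0.0945), which passed without replicate 4 of those labelled Bmal1-/- (adjusted p = 0.0276), and Becn1, an autophagy gene (-0.29, adjusted p = 0.115). Other tested probe sets were at 0.20 and 0.00 for Bcl2l11 and at 0.01 and -0.02 for Becn1. None of those passed.

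Within the bHLH-PAS family, the clock genes Arntl (log2 difference 1.13) and Clock (0.70) rose, and the tested HIF members did not pass. Npas2, a paralogue of Clock, read 134.5, 110.9 and 111.3 on the arrays labelled Bmal1-/-, against 3.2, 6.6 and 0.2 in wild type. It was bright enough to be tested only through the arrays labelled Bmal1-/-, so its call is no independent support, and its fitted difference of 2.81 depends on the constant added before the log. These were the 3 that passed of 7 tested and 16 listed, where 5.66% of all tested genes passed. That list leaves out the members Hif1a, Epas1 and Arnt, none of which passed. Its 3 calls include the targeted gene Arntl and Npas2, so the share is no measure of the family. The clock paralogue Arntl2 was too dim to be tested. The aryl hydrocarbon receptor gene Ahr (0.08), Ncoa1 (-0.09) and Ncoa3 (0.23) did not pass. Hif3a, also in this family, is given above. The difference between clock and HIF members was not itself tested.

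**Figure D4:**
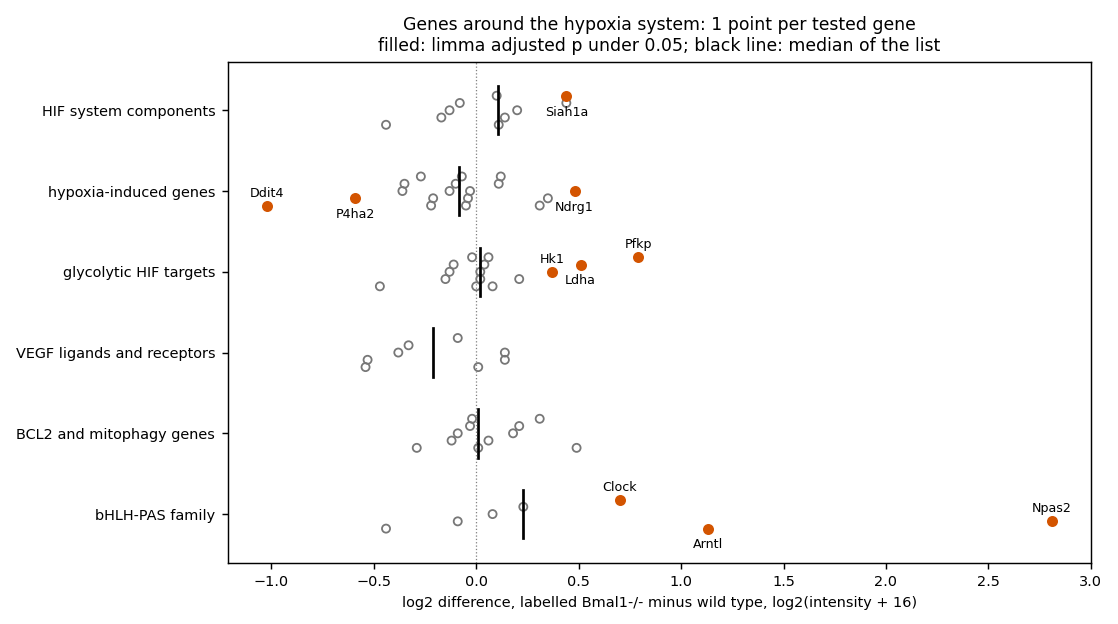
Log2 difference (labelled Bmal1-/- minus wild type) of each tested gene in 6 lists around the hypoxia system, filled where the limma adjusted p was under 0.05, with the list median as a black line. Filled points lie on both sides of 0 among the hypoxia-induced genes (Ddit4 at -1.02, Ndrg1 at 0.48), and the medians lie between -0.21 and 0.23.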

How the data were processed

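Pools of 3 male pituitaries were profiled on Affymetrix arrays, 3 labelled Bmal1-/- and 3 wild type, from 1 ug of total RNA each, per the labels' protocols. The deposited intensities come from MAS5, per the submitters' processing notes; the sources used here give no version, target value or detection call. On all 6 arrays the mean after trimming 2% at each end was 100.0, so each array was scaled to 1 target. MAS5 corrects each probe with its mismatch partner, which makes dim values unsteady.

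Of 22690 probe sets, 64 array controls were left out. The platform annotation names 1 gene for 20393, several for 691 and none for 1606. Of the 20393, 20364 matched the RefSeq table (GRCm38.p6) and no symbol changed. The RefSeq promoter table holds windows for 6 of the 7 genes and none for Epas1.

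Values were taken as log2(intensity + 16), which understates changes of dim genes. The brightest 60% by mean log2 level were fitted with limma 3.58.1 in R 4.3.3 (lmFit, eBayes with an intensity trend, two-sided), with Benjamini-Hochberg adjustment over all 13576. The procedure was tested on simulated data. The brightest tested probe set stands for a gene.

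Members, lists and tests were chosen with earlier results of these data known, and Fam162a gets no p. Named genes are all members, Arntl, up to 6 genes past the threshold per list or the 2 with the smallest p, and the 5 most like Fam162a and Vegfa; others, named for contrast, were chosen with their values known. The alternatives tried were quantile normalization, equal medians, no filter, the top 40%, no trend, averaged probe sets, each array left out, and pseudocounts of 1 and 64. The number of arrays limits the precision. Labels give no batch.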

Additional observations from a re-analysis of the deposited data

How the results depend on the processing

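Across the results and alternatives, 163 values were rated as kept, 23 as moved, 3 turned direction and 1 newly passed. The moved values were those of Epas1 and counts of calls, and most of these counts fell. For a gene, kept meant the same direction and side of the threshold, or staying within the replicate spread. Counts of calls have no direction, and some rated as kept did change. Without wild-type replicate 2 the 752 calls over the array became 950. The hypoxia-induced calls went from 1 higher and 2 lower to 0 higher and 3 lower. Hif1a, Vegfa and Fam162a were rated as kept under every alternative run for them, though Hif1a was -0.22 with its probe sets averaged, against -0.09. Arnt and Vegfa fell outside the 40% of brightest probe sets and have no value there. Epas1 was -0.47 with a pseudocount of 1 and -0.10 with 64. Median intensity was 31.7 to 32.2 on the arrays labelled Bmal1-/-, against 33.5 to 34.3 in wild type. Quantile normalization gave -0.16 for Epas1, -0.11 for Vegfa and -0.01 for Arnt, but -0.12 for Hif1a and -0.34 for Bnip3. Equal array medians left Epas1 at -0.25, Vegfa at -0.17 and Arnt at -0.08. Arnt turned to 0.11 with both probe sets averaged and to 0.04 without replicate 5 of those labelled Bmal1-/-, and Egln1 to 0.02 without wild-type replicate 1. Bnip3 passed (-0.44) without replicate 6 of those labelled Bmal1-/-. With 1 array left out, the differences spanned -0.11 to -0.06 for Hif1a, -0.32 to -0.16 for Epas1, -0.15 to 0.04 for Arnt, -0.11 to 0.02 for Egln1, -0.30 to -0.02 for Vegfa, -0.44 to -0.25 for Bnip3 and 1.26 to 1.47 for Fam162a. The 752 probe sets called over the array became 330 with no filter on low values (22626 tested) and 407 without the intensity trend. With 1 array left out they numbered 314 to 950, with 425, 950 and 314 without wild-type replicates 1, 2 and 3, and 425, 329 and 410 without replicates 4, 5 and 6 of those labelled Bmal1-/-; these fits also have fewer arrays. The HIF system count of 1 was 0 with no filter, without the trend and with averaged probe sets, and the hypoxia-induced count of 3 was 1 with no filter and 1 without the trend. With 1 array left out, the counts were 0 to 1 (HIF system), 0 to 3 (hypoxia-induced), 2 to 4 (glycolytic), 0 to 1 (VEGF), 0 to 1 (BCL2 and mitophagy) and 3 (bHLH-PAS). Other causes of these shifts were not tested. No paired analysis was possible because the genotypes share no replicate number. Signal near background limits what Epas1, Arnt and the dim probe sets of Hif1a and Vegfa can show.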
